A study of Mus musculus with 7 samples.

Results

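Asic2, Cdh13, Macrod2, Camta1, Ptprd and Kcnh7 are 6 long mouse genes, chosen by name because they were proposed as long neuronal genes holding the most H3K27me3 reads. The files list 23530 gene entries, and each of the 6 has 1 entry in both H3K27me3 count files. The reads themselves chose the genes, so the read totals are given below as a description and support nothing. Asic2, Cdh13, Macrod2, Camta1 and Ptprd ranked 2 to 6 by P17 reads among the 23216 entries left after multicopy features were set aside, and 16 to 20 among all entries. Kcnh7 ranked 485 and 499, so the label did not hold for it.

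H3K27me3 was profiled by chromatin immunoprecipitation and sequencing in wild-type CD1 mouse spermatocytes at postnatal day 12 (P12) and postnatal day 17 (P17), with the same antibody (Abcam ab6002) at both stages. The cells came from digested testes fractionated through Percoll, with no genetic change in either group. The P12 file holds 1 library and the P17 file pools 2 replicates, so each stage gives 1 value per gene, no p-value was computed, and every interval covers counting error only. Of the series' 7 samples, the 2 with H3K27me3 gene counts were used; input libraries were not analysed here. The counts summed to 13462873 reads at P12 and 26664736 at P17. Histone marks do not measure RNA, so the purity of the cells could not be checked from marker transcripts.

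H3K27me3 is placed by Polycomb repressive complex 2 (PRC2) and spread over CpG-rich promoters of silent developmental genes, where it covers domains of a few to many kilobases. Very long genes, many of them genes of synapses and cell adhesion, are mostly intron, and a count over their whole body adds up reads from a long stretch of chromatin whether or not it is marked. Read totals of genes can therefore be compared only per length. Here CPM is reads scaled to a file total of 1000000 counted reads, and CPM per kb divides this by the gene's span in the RefSeq annotation of GRCm38. The reads were aligned to mm9, and the sources used here do not give the exact intervals that the authors counted.

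Starts of these genes differ in CpG content, the feature that PRC2 targets are known for. RefSeq windows of 250 bases before an annotated start (GRCm38.p6) were found for 4 of the 6 genes, and 1 window is shown for each of those 4, 5′ to 3′ on the gene's strand, with every CG in capitals; CG reads the same on both strands. The windows lie at chr11:81968397-81968646 on the minus strand for Asic2, chr2:140395180-140395429 on the plus strand for Macrod2, chr4:151861769-151862018 on the minus strand for Camta1 and chr2:63184288-63184537 on the minus strand for Kcnh7.
Asic2: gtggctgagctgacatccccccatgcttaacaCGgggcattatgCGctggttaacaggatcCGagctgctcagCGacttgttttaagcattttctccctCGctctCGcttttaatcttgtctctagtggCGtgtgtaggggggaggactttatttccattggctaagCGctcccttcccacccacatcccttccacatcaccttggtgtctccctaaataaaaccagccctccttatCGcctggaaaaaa
Macrod2: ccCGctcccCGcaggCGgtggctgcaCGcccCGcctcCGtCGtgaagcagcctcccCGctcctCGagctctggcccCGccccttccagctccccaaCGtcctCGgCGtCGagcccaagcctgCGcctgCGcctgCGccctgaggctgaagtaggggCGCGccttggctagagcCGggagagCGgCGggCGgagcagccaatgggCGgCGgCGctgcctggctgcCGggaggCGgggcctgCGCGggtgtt
Camta1: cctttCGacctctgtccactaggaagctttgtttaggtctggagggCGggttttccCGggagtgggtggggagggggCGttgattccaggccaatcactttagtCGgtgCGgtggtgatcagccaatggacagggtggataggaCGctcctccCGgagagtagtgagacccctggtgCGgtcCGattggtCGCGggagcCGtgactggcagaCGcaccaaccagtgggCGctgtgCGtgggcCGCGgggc
Kcnh7: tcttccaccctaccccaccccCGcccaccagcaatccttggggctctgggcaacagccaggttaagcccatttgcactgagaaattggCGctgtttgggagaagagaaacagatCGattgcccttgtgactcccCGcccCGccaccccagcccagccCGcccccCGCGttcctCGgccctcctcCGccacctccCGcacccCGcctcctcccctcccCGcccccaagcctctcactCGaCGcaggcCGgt

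The Macrod2 window holds 30 CG pairs, and 94.1% of 32851 such windows hold fewer. The Camta1 window holds 18, the Kcnh7 window 16 and the Asic2 window 9, against a median of 6 over all windows, and 92.1% of all windows hold at least 1. A second annotated start of Asic2, inside the gene, has 14. The order of these 4 genes by CG pairs was not their order by reads per length, in which Camta1 stood first and Asic2 second.

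Asic2, which encodes a subunit of proton-gated sodium channels, had 19773 reads at P12 and 37104 at P17, or 1469 and 1392 CPM. Its GRCm38 span is 1088 kb, which gives 1.35 CPM per kb at P12 (95% Poisson interval 1.33 to 1.37) and 1.28 at P17 (1.27 to 1.29). Both densities lay above the median of 21615 genes with a span, 0.753 CPM per kb at P12 and 0.710 at P17, by 1.79 and 1.80 times. Among 223 genes of at least 500 kb, 3 were denser than Asic2 at P12 and 2 at P17. Such places among long genes, here and below, are a description, since the genes were chosen for their reads. RefSeq also annotates a start that leaves a span of only 272.7 kb, and over that length the same reads would amount to 5.38 CPM per kb at P12 and 5.10 at P17. Which span the authors used was not tested.

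Cdh13 encodes T-cadherin, a cadherin that is tied to the membrane by a lipid anchor and has no cytoplasmic part. It had 18845 reads at P12 and 34737 at P17, or 1400 and 1303 CPM. Over its 1185 kb this came to 1.18 CPM per kb at P12 (1.16 to 1.20) and 1.10 at P17 (1.09 to 1.11), which is 1.57 and 1.55 times the median gene. At each stage 9 of the 223 genes of at least 500 kb were denser.

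Camta1, a calmodulin-binding transcription activator, was the shortest of the 5 genes with the most reads, at 802 kb, and the densest of the 6 when Asic2 is given its 1088 kb span. It had 16617 reads at P12 and 32441 at P17, or 1234 and 1217 CPM. Its density was 1.54 CPM per kb at P12 (1.52 to 1.56) and 1.52 at P17 (1.50 to 1.53), 2.04 and 2.14 times the median gene. No gene of at least 500 kb was denser at P12, and 1 was denser at P17, the protocadherin cluster entry Pcdha4-g at 1.60, whose span was found through a synonym.

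Macrod2 encodes a macrodomain enzyme that removes ADP-ribose from proteins. It had 18326 reads at P12 and 33120 at P17, or 1361 and 1242 CPM, over 1998 kb. Its density of 0.681 CPM per kb at P12 (0.672 to 0.691) and 0.622 at P17 (0.615 to 0.629) was 0.905 and 0.876 times the median gene, below it at both stages. It was however 1.08 and 1.07 times the median of the genes of at least 500 kb.

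Ptprd encodes a receptor tyrosine phosphatase that organizes synapses, and its span of 2271 kb is the second longest among the single-copy entries. It had 17223 reads at P12 and 31488 at P17, or 1279 and 1181 CPM. Its density was 0.563 CPM per kb at P12 (0.555 to 0.572) and 0.520 at P17 (0.514 to 0.526), which is 0.749 and 0.732 times the median gene. At the density of the median gene, a span of that length would have held 23008 reads at P12 and 42993 at P17, more than were counted.

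Kcnh7 encodes a voltage-gated potassium channel of the erg type. It had 3670 reads at P12 and 6758 at P17, or 273 and 253 CPM, and its span of 491 kb is the shortest of the 6. Its density of 0.555 CPM per kb at P12 (0.538 to 0.574) and 0.516 at P17 (0.504 to 0.529) was 0.738 and 0.727 times the median gene. By reads it stood far below the other 5, and by reads per length it could not be separated from Ptprd.

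With these spans the order by density was Camta1, Asic2, Cdh13, Macrod2, Ptprd and Kcnh7 at both stages, from 1.52 to 0.516 CPM per kb at P17. Over the span of 272.7 kb Asic2 would stand first, at 5.10. Intervals of neighbours in this order did not overlap, except those of Ptprd and Kcnh7, and of the 15 pairs 14 lay apart at each stage. Read totals of the 5 genes with the most reads differed by at most 1.18 times at P17, while their spans differed by up to 2.83 times and their densities by up to 2.92 times. Similar totals came from a shorter, denser gene such as Camta1 and from a longer, sparser gene such as Ptprd. These 5 genes were chosen for their reads, so similar totals, with density falling as span rises, follow from the choice. Together the 6 genes held 0.836% of P12 and 0.783% of P17 reads over the single-copy entries with a span, against 0.743% of their summed length. Because the choice was made on these reads, the difference between the shares is a description and supports nothing.

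**Figure D1:**
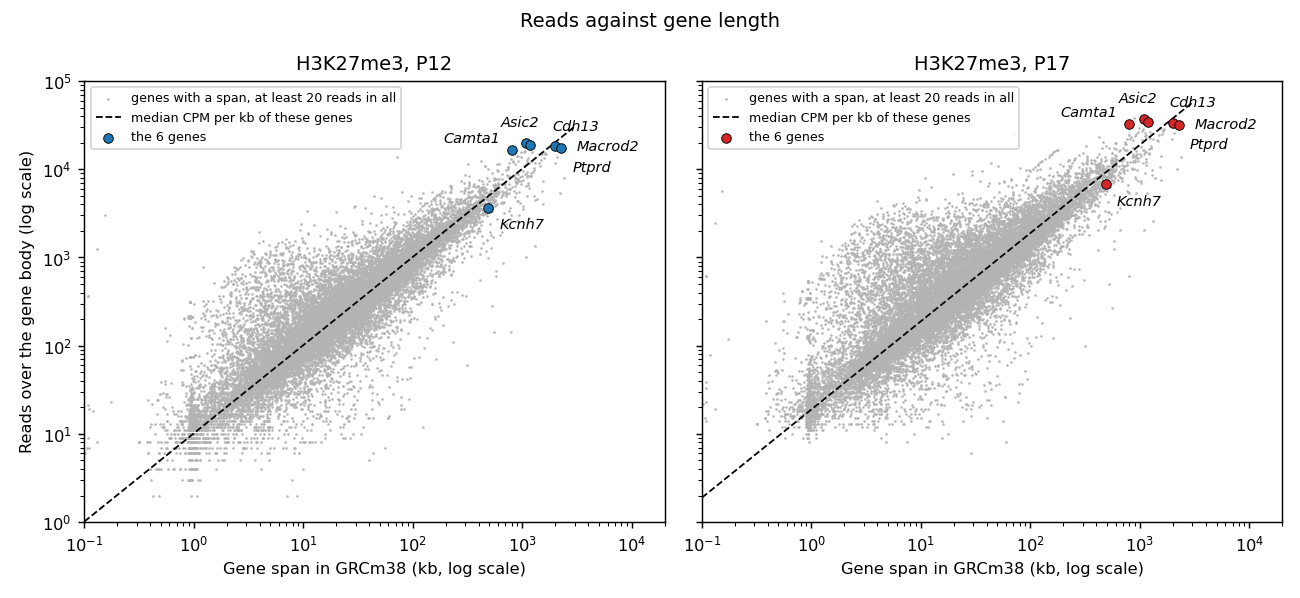
Reads over the gene body against gene span, both on log scales, at P12 (left) and P17 (right); each grey point is a gene, coloured points are the 6 genes, and the dashed line gives the reads expected at the median CPM per kb. Asic2, Cdh13 and Camta1 lie above the line, and Macrod2, Ptprd and Kcnh7 lie below it, at both stages.

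Length and reads went together over the whole table. Across the 21615 genes, Spearman's rho between reads and span was 0.863 at P12 and 0.818 at P17, a description over genes that share 1 library a stage and are not independent. Within the 223 genes of at least 500 kb, which include 5 of the 6 genes, rho was 0.548 and 0.537. Of the 20 single-copy entries with the most P17 reads, 19 span at least 500 kb and 15 at least 1000 kb, with a median density of 0.836 CPM per kb. Median density at P17 was 0.833 CPM per kb for genes under 10 kb, 0.606 for those of 500 to 1000 kb and 0.529 for those of 1000 kb and over.

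**Figure D2:**
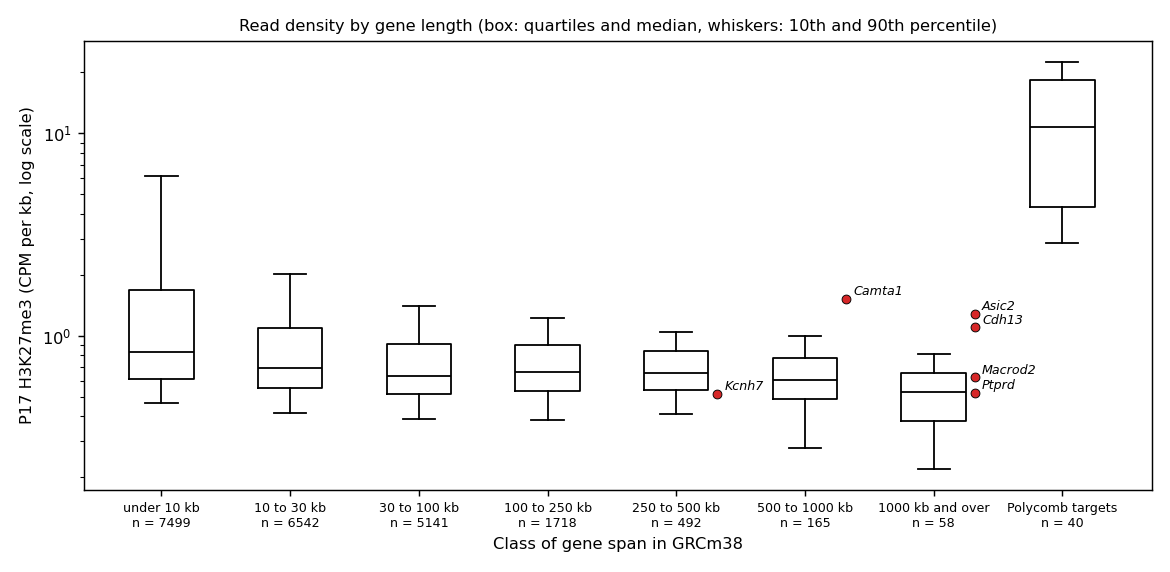
P17 H3K27me3 density in CPM per kb (log scale) by class of gene span and for 40 Polycomb target genes; boxes give quartiles and the median, whiskers the 10th and 90th percentile, red points the 6 genes beside their class. Camta1, Asic2 and Cdh13 lie above the whiskers of their classes (90th percentiles of 0.998 and 0.809), and all 6 lie below the median of the Polycomb targets, 10.7. Camta1, Asic2 and Cdh13 were chosen for their reads, so their place within a class is a description.

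Known Polycomb targets gave a scale for these densities. The 40 genes of that list, all developmental regulators, had a median of 8.14 CPM per kb at P12 and 10.7 at P17. They ran at P17 from Gata4, a cardiac and gonadal factor, at 1.39 to Hoxd9, a limb and axial patterning gene, at 36.4. At P17 Camta1 at 1.52 was denser than Gata4, whose span of 72.8 kb is long for that list, and the other 5 genes were sparser than all 40. At P12 Gata4 stood at 0.907, the lowest of the list, and Camta1 at 1.54, Asic2 at 1.35 and Cdh13 at 1.18 were all denser than it. Over the shorter span Asic2 would also exceed Gata4 at P17, while staying under the median of the list. Against 34 housekeeping genes, with a median of 0.576 CPM per kb at P17, Asic2, Cdh13, Camta1 and Macrod2 were above and Ptprd and Kcnh7 below. That list ran from Rab7, an endosomal GTPase gene, at 0.175 to Gusb, a lysosomal enzyme gene, at 1.79. A density averaged over a whole gene body cannot show a marked domain that fills only a small part of it.

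Genes lying beside a long gene share its chromosomal surroundings, and the 3 nearest measured genes on each side, in the order of the GRCm38 annotation, were set beside each of the 6. They were ordered by value only, without intervals for the densities of the neighbours. Asic2, Cdh13, Macrod2, Camta1 and Ptprd were chosen for their reads, and the neighbours were not. That choice favours a higher density in the chosen genes, so places among neighbours, here and below, are a description. Some neighbours hold few reads, such as Ccl2 with 59 at P17, so small differences may lie within counting error. Beside Asic2 they were also dense: Spaca3, Tmem98, Myo1d, Ccl2, Ccl7 and Ccl11 had a median of 1.22 CPM per kb at P12 and 1.18 at P17, and ran from 0.657 to 1.68 at P17. Asic2 was denser than 5 of these 6 at P12 and 4 at P17. Of the 2 measured genes nested in its span, 5530401A14Rik stood at 1.19 CPM per kb at P17, and the short 1700071K01Rik at 5.24 on 145 reads.

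Cdh13, Camta1 and Macrod2, like Asic2 chosen for their reads, were also denser than most of their neighbours. Cdh13 at 1.10 CPM per kb at P17 was by value denser than all 6 flanking genes, which had a median of 0.689. The highest of them was Sdr42e1, close to Cdh13 at 1.06 on 348 reads. At P12 Sdr42e1, with 1.35 CPM per kb on 223 reads, was denser than Cdh13. Camta1 at 1.52 was denser than 5 of its 6 neighbours at each stage, with a neighbour median of 0.688 at P17. Those 5, Vamp3, Per3, Dnajc11, Thap3 and Phf13, ran from 0.609 to 0.727 at P17, and the sixth, the urotensin gene Uts2, stood at 1.91 on 240 reads.

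Macrod2 was denser than 4 of its 6 neighbours at P12 and 5 at P17, where it stood at 0.622 CPM per kb against a neighbour median of 0.522 and a range of 0.355 at Ndufaf5 to 0.757 at Otor. Flrt3, a cell adhesion gene nested in its span, had 1.45 CPM per kb at P17 and gave 1.55% of the reads of Macrod2, if the authors counted reads of both strands for both genes. Ptprd and Kcnh7 lay under most or all of their neighbours. Ptprd at 0.520 was denser at P17 than 1 of 6, the histone demethylase gene Kdm4c at 0.463, against a neighbour median of 0.617. Kcnh7 at 0.516 was sparser than all 6 of its neighbours at both stages, which ran at P17 from 0.642 at Fap to 0.799 at Fign. Gca, whose span overlaps that of Kcnh7, stood close to it, at 0.531 CPM per kb on 213 reads at P12, where Kcnh7 had 0.555, and at 0.534 on 424 reads at P17.

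**Figure D3:**
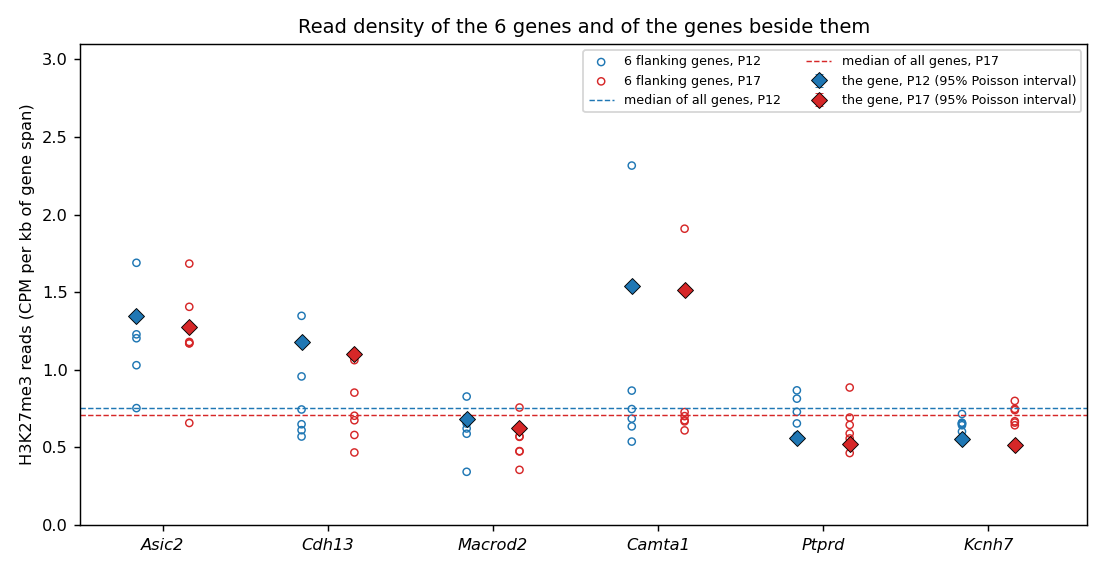
H3K27me3 density in CPM per kb of gene span for the 6 genes (diamonds, with 95% Poisson intervals that are mostly smaller than the symbol) and for the 3 nearest measured genes on each side (open circles), in blue at P12 and red at P17; dashed lines are the medians of all genes. Camta1, Cdh13, Macrod2 and Asic2 each lie above 4 or more of their 6 neighbours, those of Asic2 being dense themselves, and Kcnh7 lies below all 6 of its own. Camta1, Cdh13, Macrod2 and Asic2 were chosen for their reads, so their place among neighbours is a description. No intervals are drawn for the neighbours.

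Between the stages, all 6 genes held a slightly smaller share of the reads at P17 than at P12, as the median gene did. The log2 ratio of P17 to P12 CPM was -0.08 for Asic2 (exact 95% counting interval -0.10 to -0.05), -0.10 for Cdh13 (-0.13 to -0.08), -0.13 for Macrod2 (-0.16 to -0.11) and -0.02 for Camta1 (-0.05 to 0.01). It was -0.12 for Ptprd (-0.14 to -0.09) and -0.11 for Kcnh7 (-0.16 to -0.05). The median of the 6 was -0.10, against -0.08 over 21804 genes with at least 20 reads in all, and the 6 spanned only 0.11 on the log2 scale. The signs depend on scaling: with TMM factors, which raise the all-gene median to -0.01, Camta1 stood at 0.05, and with median-of-ratios factors Camta1 stood at 0.06 and Asic2 at 0.00.

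None of the 6 was over 2-fold higher or lower with an interval excluding a ratio of 1, as 2.52% of all genes tested were on the higher side and 0.349% on the lower. Relative to the all-gene median, the interval of Camta1 lay wholly above, where 21.6% of all genes lay, and those of Macrod2 and Ptprd wholly below, where 9.37% of all genes and 28.3% of genes of at least 500 kb lay. Intervals of Asic2, Cdh13 and Kcnh7 spanned the median. With a pseudocount of 5 reads, which lowers the all-gene median to -0.10, the interval of Ptprd spanned it and that of Asic2 lay above it. These calls rest on differences of at most 0.06 on the log2 scale, made visible by the depth of the genes. Without replicate files, their size cannot be set against the spread between animals or libraries.

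H3K27me3 at marker genes of testis cell types also differed between the stages. The counts below stand beside the 21.6% of all genes with intervals above the all-gene median and the 9.37% below. Of 10 measured Sertoli cell markers, 7 intervals lay above the all-gene median and 0 below, with a median log2 ratio of 0.60, and their summed level went from 426 CPM at P12 to 621 at P17; 3 of the 10 are also on the Polycomb target list. Of 12 spermatocyte markers 1 lay above and 6 below, with a median of -0.23 and summed levels of 352.6 and 299.6 CPM. Of 8 Leydig cell markers 3 lay above and 1 below, with a median of 0.04 and sums of 173 and 217 CPM, and no marker measured was at 0 reads. Lists not tied to these cell types moved too. All 40 Polycomb target genes lay above, with a median of 0.36. Of 34 housekeeping genes 5 lay above and 6 below, with a median of -0.22, close to that of the spermatocyte markers. Whether the markers differ from other genes of like density was not tested. All these are levels of a histone mark and not of RNA, and the part of the markers in the stage ratios of the 6 genes was not tested.

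**Figure D4:**
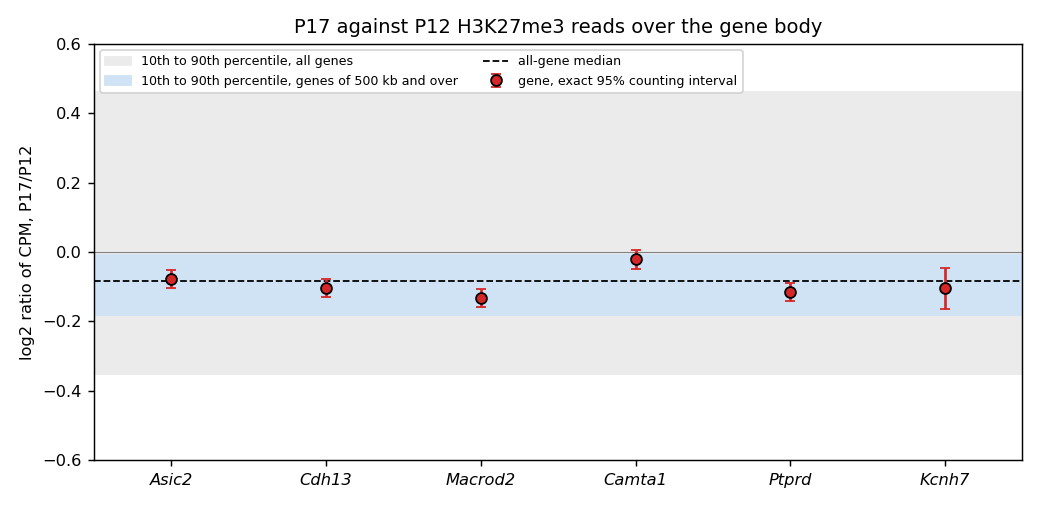
Log2 ratio of P17 to P12 CPM for the 6 genes (points, with exact 95% counting intervals), the all-gene median (dashed) and the span from the 10th to the 90th percentile of all genes (grey) and of the 223 genes of at least 500 kb (blue). All 6 points lie between -0.13 and -0.02, inside the blue range of -0.18 to -0.01.

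Other long genes moved by similar amounts. The 223 genes of at least 500 kb had a median log2 ratio of -0.10, and the middle 80% of them lay between -0.18 and -0.01, against -0.35 and 0.46 for all genes. Of these, 35 intervals lay above the all-gene median and 63 below. Across all genes, in deciles of density over both libraries, the median ratio was -0.16 in the lowest and 0.41 in the densest. Asic2 and Camta1 fell in the ninth decile, whose median was 0.11, and Cdh13 in the eighth, at 0.00, so all 3 had lower ratios than the median gene of like density. Macrod2 fell in the fourth decile, with a median of -0.15, and Ptprd and Kcnh7 in the second, at -0.16, so these 3 had higher ratios than the median gene of like density. Among the 75 densest genes of at least 500 kb, which include Asic2, Cdh13 and Camta1, the median was -0.08. Density and ratio share the same 2 libraries, so this is a description only.

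The 66 measured genes of a list of long neuronal genes, 60 of which span at least 500 kb, had a median of -0.09 and 0 over 2-fold in either direction. Of their intervals, 11 lay above and 17 below the all-gene median, where 15.7% and 28.3% of all genes of at least 500 kb lay. Those with the most P17 reads were Cntnap2, a neurexin-family adhesion gene, at 29967, the splicing factor gene Rbfox1 at 29643, Csmd1 at 28375, the neurexin gene Nrxn3 at 28203 and Ntm at 26471. Their densities at P17 were 0.501, 0.728, 0.648, 0.656 and 1.02 CPM per kb. Ratios ran from -0.20 at Slit3, a guidance ligand gene, to 0.13 at Tenm3, a teneurin gene. A second list, drawn up to hold long genes of other tissues or fragile sites, had 44 measured genes, 33 of which span at least 500 kb. Whether its members also act in neurons was not checked, so the 2 lists are not a contrast of tissues. Its median was -0.12, with 7 above and 18 below. The most reads there lay in Sdk1 at 29403, Fhit at 27104, Park2 at 26291, Wwox at 24908 and Prkg1 at 23265, and ratios ran from -0.34 at Sdk2, which spans only 291 kb, to 0.26 at Ppargc1a.

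The values on either side of the choice were close. Ptprd with 31488 P17 reads was followed by Cntnap2 with 29967, and at P12 Cntnap2 with 17039 reads stood above Camta1 with 16617. Above all of them at P17 was the protocadherin entry Pcdha4-g with 37994 reads, which had been below them at P12 with 13985; its log2 ratio was 0.46 (0.43 to 0.48). Around Kcnh7, the potassium channel gene Kcnb2 had 6760 reads and Ccdc60 had 6757. The entries most like Asic2, Cdh13, Macrod2, Camta1 and Ptprd in log2 CPM, by distance over the 2 samples, were others of these 5, apart from Cntnap2, which was among the nearest 3 of Camta1 and Ptprd. Nearest to Kcnh7 were Trhde, Astn1 and Ppfia2, at distances of 0.0060, 0.0090 and 0.017.

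Genes of like length differed widely in reads. The 3 nearest Asic2 in span were the neuregulin gene Nrg1, the netrin receptor gene Dcc and the catenin gene Ctnna2, with 0.071, 0.504 and 0.563 CPM per kb at P17. Nearest Cdh13 were Prkg1, Ccser1 and Nkain2, at 0.727, 0.535 and 0.468. Nearest Camta1 were Lphn3, Ptprn2 and Inpp4b, at 0.560, 1.14 and 0.257, so in each of these groups the named gene was the densest. Macrod2 at 0.622 also exceeded Dlg2, Lrp1b and Lsamp, at 0.414, 0.470 and 0.170. Ptprd at 0.520 stood near Cntnap2 at 0.501, and above Lsamp and the dystrophin gene Dmd at 0.216. Kcnh7 at 0.516 was sparser than Prkce, Gabrb1 and Abca13, at 0.789, 0.556 and 0.585. Since 5 of the 6 genes were chosen for their reads, these densities are a description. They also rest on GRCm38 spans. Whether reads of sparse genes such as Nrg1, Lsamp and Inpp4b were counted over less than these spans was not tested.

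Relatives of the 6 genes showed more varied ratios, and their counts stand beside the 21.6% of all genes with intervals above the all-gene median and the 9.37% below. Of the 5 acid-sensing channel genes, Asic4, in which the list's density was highest at 3.07 CPM per kb at P17, went from 739 to 1948 reads, a log2 ratio of 0.41 (0.29 to 0.54). Asic5 had the lowest density, 0.309, with 198 and 321 reads. Asic1, with 775 and 1445 reads, and Asic3, with 60 and 106, had intervals that spanned the all-gene median, as that of Asic2 did.

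Among 22 cadherin genes, 7 intervals lay above the all-gene median and 1 below. Cdh22 was densest at P17 with 3.08 CPM per kb on 10146 reads, and Cdh12, with a span of 1150 kb close to that of Cdh13, was sparsest at 0.174 on 5332 reads. Over these GRCm38 spans Cdh13 was thus 6.32 times as dense as Cdh12 at P17. Whether reads of Cdh12 were counted over less than its span was not tested. Ratios ran from -0.37 at Cdh24 (-0.72 to 0.01), on 105 and 162 reads, to 0.38 at Cdh3, the P-cadherin gene (0.26 to 0.51). The counting interval of Cdh24 spanned the all-gene median, and the only interval below that median was that of Cdh10.

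Macrod1, the closest relative of Macrod2, had 1837 and 4366 reads over 141 kb, a ratio of 0.26 (0.18 to 0.34), with 1.16 CPM per kb at P17. In the macrodomain list, Parp9 was densest at 1.45 and stood at 0.71, Parp14 at 0.31, and Gdap2 was sparsest at 0.607. Macrod2 was the only one of the 5 measured genes whose interval lay below the all-gene median, while 3 lay above. Camta2, with 197 and 399 reads over 18.7 kb, had 0.801 CPM per kb at P17 and a ratio of 0.03 (-0.22 to 0.29).

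The phosphatases nearest to Ptprd both lay above the all-gene median. Ptprs went from 1517 to 4682 reads, a ratio of 0.64 (0.56 to 0.72), with 2.74 CPM per kb at P17, and Ptprf from 1009 to 2409 reads, a ratio of 0.27 (0.16 to 0.38), with 1.09. They span 64.1 and 83.2 kb. Of the 7 measured Kcnh channel genes, 4 lay above and 0 below. Kcnh4 was densest at 3.27 CPM per kb with a ratio of 0.57, Kcnh2 had 1.70 and 0.55, Kcnh3 2.79 and 0.10, and Kcnh1 1.01 and 0.00. Kcnh6 had 731 and 1490 reads and Kcnh5 had 3066 and 5532. Kcnh7 was the longest and sparsest of the 7. None of these relatives was over 2-fold higher or lower, and whether the ratios of short and long relatives differ was not tested.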

How the data were processed

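The submitters' processing notes name Bowtie, SAMtools and HTSeq and the build mm9, with no versions or roles. The deposited files hold raw read counts per gene entry, which the file names credit to multiBamCov; no normalization or input subtraction is recorded. The peak lists are in mm9, for which no annotation was used, so no peak was placed at these genes. Counts were scaled to the column total (CPM). Symbols with several entries and 4 further multicopy entries, chosen after their counts had been seen (314 in all, with 15.6% of P12 and 15.4% of P17 reads) counted towards the totals only. Of the other 23216 entries, 21411 matched a GRCm38 RefSeq symbol and 1657 a synonym; spans, gene order, overlaps and alternative starts were taken from the GRCm38 tables. Log2 ratios added 1 read to each count before scaling and exact conditional (Clopper-Pearson) 95% intervals, for genes with at least 20 reads; levels have exact Poisson intervals. The ratio and its interval were tested on simulated Poisson counts, the model that the interval assumes. That test checks the code and says nothing about spread between libraries. The genes and lists were chosen with earlier results of these data known. Named genes are the 6, their families, the list members with the most reads or extreme ratios, the nearest in span, level and position. The rule would have named all 484 entries above Kcnh7; it was narrowed to those near the 6 after the values had been seen. Alternatives were TMM (edgeR 4.0.16), median-of-ratios factors, totals without multicopy entries, other pseudocounts, minimum reads and spans. Python 3.11.15 and scipy 1.17.1 were used.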

Additional observations from a re-analysis of the deposited data

How the results depend on the processing

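The median log2 ratio of the 6 genes, -0.10, was -0.029 with TMM and -0.026 with median-of-ratios factors. Relative to the all-gene median it was -0.02 under each scaling. It could not move, since a change of scaling shifts the log2 ratio of every gene by the same amount. With a pseudocount of 5 reads this difference from the all-gene median was -0.00034. With that pseudocount 2 genes, Asic2 and Camta1, lay above the all-gene median and 1, Macrod2, below, in place of 1 and 2; the all-gene median itself falls, by 0.02. Genes over 2-fold lower at P17 numbered 76, but 15 with at least 50 reads required and 4 with at least 100, where fewer genes are tested; those over 2-fold higher ranged from 467 to 666. Taking off the reads of nested genes left Asic2 at 1.24 CPM per kb at P17. No paired analysis was possible because each stage has 1 file, and no replicate could be left out. Depth limits little here: the widest interval of a ratio, that of Kcnh7, was -0.16 to -0.05. No length of the files' own build was at hand, so the alternative of several tables of spans was not run.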

Other observations

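Among genes of at least 500 kb, the only one over 2-fold higher at P17 was Lrrtm4, which encodes a synaptic adhesion protein, whose reads went from 143 at P12 to 610 at P17, a log2 ratio of 1.10 (exact 95% counting interval 0.84 to 1.38). Its density was 0.0134 CPM per kb at P12 and 0.0289 at P17, far under that of the 6 genes. It is 1 of 8 such genes under 0.1 CPM per kb at P12, of which 4 had a log2 ratio above 0. Sema6d, a guidance ligand gene, stood at 0.33 (0.19 to 0.47) with 0.0787 and 0.0988 CPM per kb. The growth factor gene Nrg1, with 1024 and 2062 reads over nearly the same GRCm38 span as Asic2, had 0.0702 and 0.0713 CPM per kb, against 1.35 and 1.28 for Asic2. Zfhx3, a transcription factor gene with 3183 and 7275 reads, stood at 0.21 (0.15 to 0.27). Whether the intervals counted for these sparse genes were shorter than their GRCm38 spans was not tested. All these genes were singled out after their values had been seen.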
